A study of Mus musculus with 8 samples.

Results

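The genes described here encode the factors that start, extend and end protein synthesis on the cytosolic ribosome, together with the poly(A)-binding proteins of the cytoplasm. They were chosen by name from the deposited count table (symbols that begin with EIF and a digit, EEF1, EEF2 or PABPC and a digit, and the release factor genes ETF1, GSPT1 and GSPT2), with at least 40 counts summed over the 8 libraries. Of 33514 rows in the table, 86 had such a symbol and 39 reached that sum, among them 1 eIF2 alpha kinase and 2 proteins that bind eIF4E. The smallest sum inside the threshold was that of EIF4ENIF1, with 55 counts, and the largest outside it were those of EIF2B3 and EIF4E3, with 37 each. Of the 47 matching rows outside it, 27 had counts and 20 had 0 counts in every library. The sum takes no account of the groups.

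All 8 libraries came from cardiomyocytes of adult C57BL/6 mice, kept in culture, transfected with siRNA and, 24 h later, given 100 µM phenylephrine, an alpha1-adrenergic agonist used to induce hypertrophic growth, for 24 h. The siN group (n = 4) received a negative control siRNA and the siHoxa5 group (n = 4) an siRNA against the homeobox gene Hoxa5. Both groups carried phenylephrine, and its own effect was not measured here. Nothing in the labels ties a repeat to an animal or culture of its own; every p-value therefore rests on library-to-library spread, which may be technical. The row HOXA5 held 2, 0, 3 and 3 counts in siN libraries 1 to 4 and 1, 3, 4 and 1 in siHoxa5 libraries 1 to 4, a ratio of rates of 1.24 (exact 95% interval 0.426 to 3.70, counting error only). A lower level of the target was thus not detectable from these few counts, so each direction below compares the libraries labelled siHoxa5 with the libraries labelled siN.

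Initiation begins when eIF2 carries the initiator methionyl-tRNA to the small ribosomal subunit, with eIF1, eIF5 and the multi-subunit eIF3, and when eIF4F, made of the cap-binding protein eIF4E, the scaffold eIF4G and the helicase eIF4A, brings that subunit to a capped mRNA. Poly(A)-binding protein on the tail of the mRNA contacts eIF4G and so links both ends of the message. eEF1A then delivers aminoacyl-tRNAs, eEF2 moves the ribosome along, and eRF1 and eRF3 (ETF1 and GSPT1) release the finished protein. In heart muscle, growth in response to adrenergic agonists is known to involve increased protein synthesis, and phosphorylation of eIF2, eIF4E-binding proteins and eEF2 is a main form of its control. mRNA counts do not report phosphorylation.

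The siN libraries held 635824 to 658192 counts and the siHoxa5 libraries 560190 to 619942, so every siHoxa5 library was shallower than every siN library. In pairwise comparisons of siHoxa5 libraries, chi-square per gene was 1.89 to 2.57 for pairs with library 2 or 4. It was 1.47 for siHoxa5 libraries 1 and 3, beside 1.37 to 1.55 among siN libraries. Values without siHoxa5 libraries 2 and 4 are given for some genes only. Where none is given, a result can still depend on these libraries. The table spells symbols as human genes are spelled. Of the 39 genes, 36 could be matched to a mouse gene of GENCODE M21 by name or RefSeq synonym (EIF3J to Eif3j1, PABPC3 to Pabpc6). EIF2S3, EIF2S3B and EIF5AL1 had no mouse namesake, which can be a difference of naming alone. With such rows holding counts and rows of usually abundant genes such as EIF4A1 and EEF1G at or near 0, it is uncertain that reads were matched to mouse gene models throughout, and a low row does not show a low transcript level. Of 15 cardiomyocyte markers, 10 had counts, with a summed level of 54188 to 57756 CPM in siN and 68345 to 73289 CPM in siHoxa5 libraries, while TNNI3, MYL2, MYL3, PLN and MB were at 0. Of these 10 with counts, 5 rose (MYH6, MYH7, ACTN2, ATP2A2 and TTN), TNNT2 fell (-0.44 (SE 0.13) on the log2 scale) and 4 did not pass; MYH6 and MYH7, at means of 21752 and 24770.1 CPM in siN, made up most of the sum. CPM stands for counts per 1000000 after TMM scaling of the library sizes. Of 9 fibroblast markers, 6 had counts (10179 to 10848 CPM in siN and 10904 to 12846 CPM in siHoxa5). Nearly all of these counts came from COL1A1 and COL1A2, and LUM, DPT and TCF21 were at 0. COL1A1 rose (0.21 on the log2 scale, SE 0.044, edgeR adjusted p = 1.95e-04), while COL1A2 did not pass and its groups overlapped. The endothelial markers summed to at most 34.3 CPM, those of smooth muscle and pericytes to at most 29.2 CPM and those of leukocytes to at most 1.82 CPM in any library. Both cardiomyocyte and fibroblast marker sums were higher in every siHoxa5 library than in any siN library, and their part in the results below was not tested. In such bulk samples fewer cells of a type and less RNA per cell cannot be told apart.

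PABPC1, the main cytoplasmic poly(A)-binding protein gene, was lower in the siHoxa5 libraries, and it was the only one of the translation factor genes to pass the threshold. It fell by 13.6% (95% interval -18.4% to -8.44%), while the eIF4F, eIF3, eIF2, eEF1A, eEF2 and release factor genes gave no called change. The filter on low counts kept 37 of the 39 genes, all but EIF2AK4 and EIF4ENIF1. Of these 37, 0 rose, 1 fell and 36 did not pass (edgeR quasi-likelihood test, adjusted p under 0.05 by the Benjamini-Hochberg method over all 3020 genes tested). That is 2.70% of the genes, against 7.12% of all tested genes called in either direction, 3.38% of them lower and 3.74% higher. At an unadjusted p under 0.05 there were 3 of 37 (8.11%), PABPC1, EIF4E2 and EIF4G2, against 19.6% of all tested genes. DESeq2 likewise called 0 higher and PABPC1 alone lower (4.15% of its genes with an adjusted p were called, 2.04% higher and 2.11% lower).

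The median log2 fold change of the 37 genes was -0.042, beside -0.00371 over all tested genes, and 24 of them lay below 0 and 13 above. Their median absolute log2 fold change was 0.0875, against 0.155 for all tested genes, and no value lay outside -0.30 (EIF5B) to 0.29 (EIF4B). Their median SE was also smaller, 0.101 against 0.169 for all tested genes. For 19 of the 37 the 95% interval stayed within 1.25-fold either way (51.4%, beside 23.7% of all tested genes). These intervals use the test's standard error, which pools the spread of both groups and borrows from other genes. They can thus be narrower than the spread of a gene's own libraries would give. These comparisons with all tested genes were not matched for abundance or SE, so they do not show that the set changed less than other genes. These 19 included all 14 with a mean of at least 500 CPM, namely PABPC1, EIF4G2, EIF1, ETF1, EIF4A2, EEF1A1, EIF4G1, GSPT1, EIF5, EIF3J, EIF5A, PABPC4, EIF4E and EIF2S1. Among all 400 tested genes of that abundance, 82 were called (20.5%), beside 1 of these 14. The CPM of the groups did not overlap for 1 of the 37 genes, again PABPC1; over all tested genes, 5.76% lay apart with siHoxa5 lower and 6.19% with siHoxa5 higher.

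**Figure D1:**
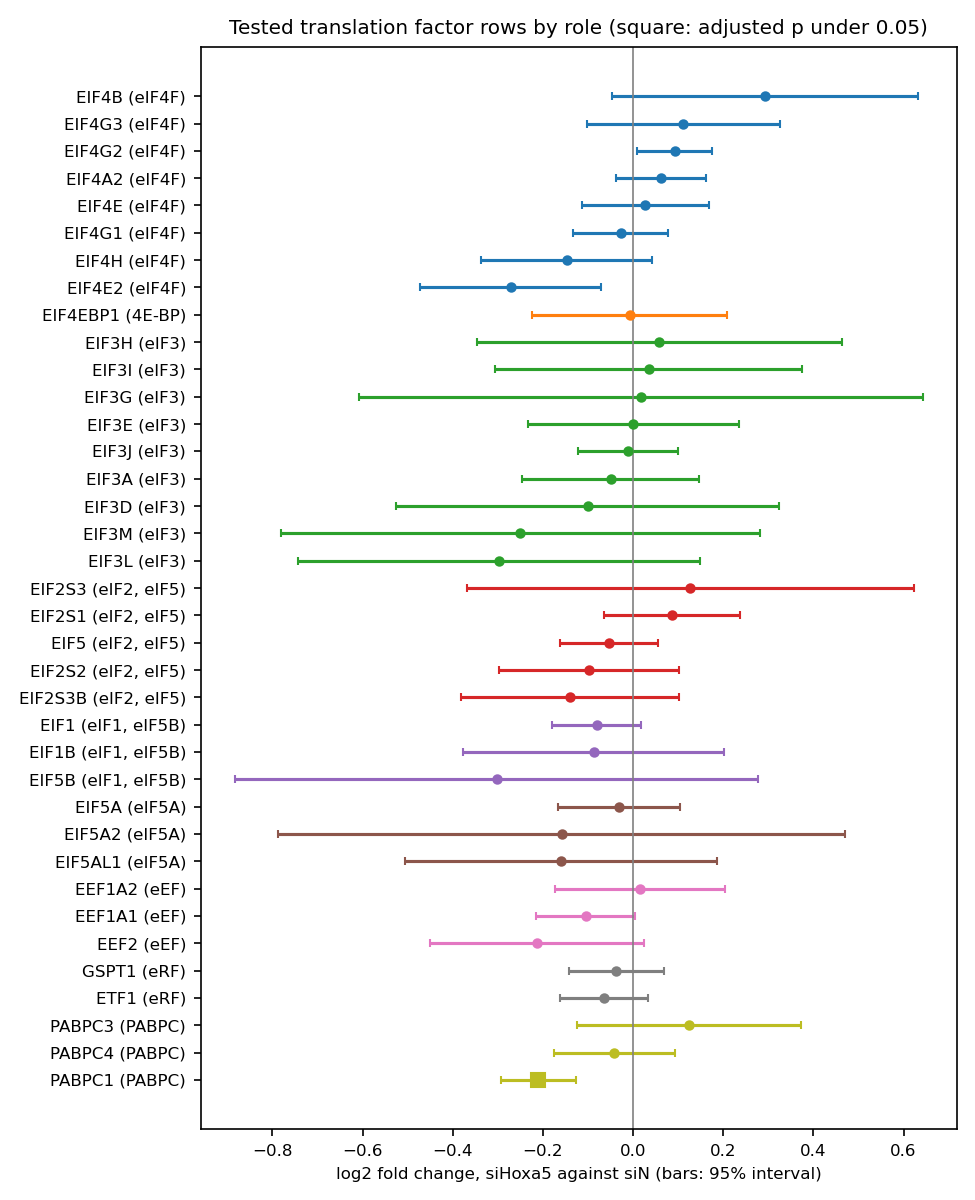
Log2 fold change of siHoxa5 against siN (x axis) for the 37 tested genes, grouped by role (colours and labels in brackets); bars are 95% intervals and the square marks an adjusted p under 0.05. PABPC1, at the bottom, is the only square, at -0.21; all other intervals but those of EIF4E2 and EIF4G2 cross 0, and the widest belong to genes of few counts such as EIF5A2, EIF3G and EIF5B.

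**Figure D2:**
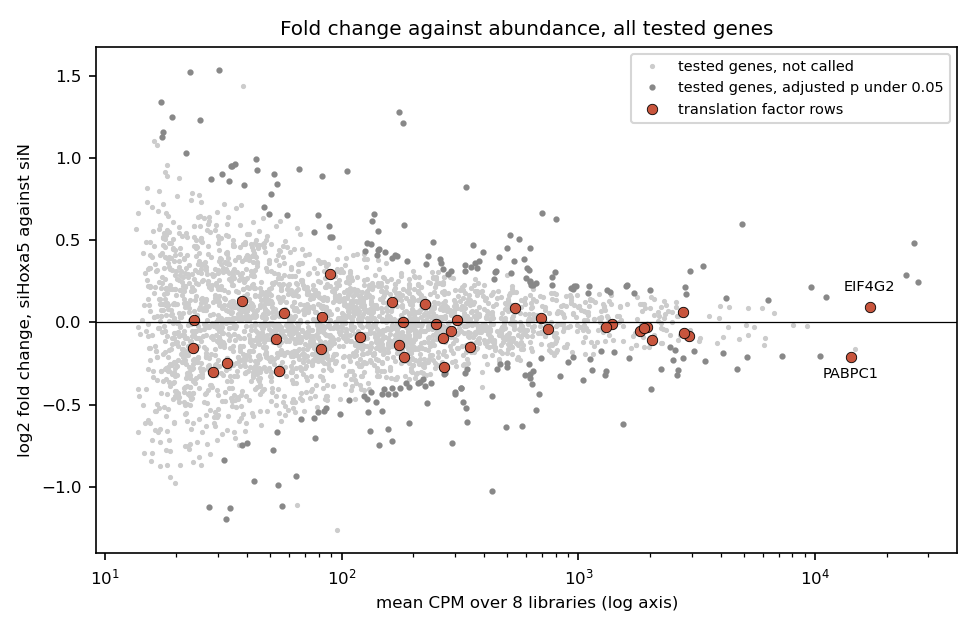
Log2 fold change (y axis) against mean CPM over the 8 libraries (x axis, log scale) for all 3020 tested genes in grey, darker where called, with the 37 translation factor genes in red. EIF4G2 and PABPC1 stand at the right ranking 4 and 6 by abundance among tested rows, on opposite sides of 0.

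The poly(A)-binding proteins coat the poly(A) tail, protect the mRNA and promote initiation through eIF4G. Mouse Pabpc1 lies on chromosome 15, 36595661 to 36609668, minus strand (GRCm38, the mm10 assembly; GENCODE M21), and Pabpc4, a second cytoplasmic form, on chromosome 4, 123262351 to 123298925, plus strand. Reads of one of these genes could be counted for another where their sequences are alike. Over all aligned coding bases of the GENCODE M21 transcripts with the longest coding sequence, Pabpc1 and Pabpc4 were 72.5% identical with a longest shared run of 18 bases, and Pabpc1 and Pabpc6 (the mouse match of the row PABPC3) were 83.4% identical with a longest shared run of 42 bases. The sources used here do not give the treatment of reads that fit several genes, so the PABPC3 row in particular is uncertain.

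PABPC1 was measured at 15443, 15082, 14929 and 15138 CPM in siN libraries 1 to 4 and 13138, 12804, 12814 and 13613 CPM in siHoxa5 libraries 1 to 4. All 4 siHoxa5 libraries lay below all 4 siN libraries, with the lowest siN library at 14929 and the highest siHoxa5 library at 13613 CPM. The means were 15148 ± 216 CPM in siN and 13092 ± 380.4 CPM in siHoxa5 (SD, n = 4 each), for a log2 fold change of -0.21 with SE 0.042 and edgeR adjusted p = 1.12e-04. Among the 102 genes lower in siHoxa5, PABPC1 ranked 25 by p but only 94 by the size of its fold change: the median of those genes was -0.40. Its call was kept in all 15 alternatives tried, with log2 fold changes from -0.23 (without siHoxa5 library 4) to -0.16 (after a fit that took out the dependence of each library on gene length and GC content, called the length and GC alternative below) and adjusted p of at most 0.00299. Without siHoxa5 libraries 2 and 4 it was -0.22.

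PABPC4 was measured at 743, 749, 752 and 763 CPM in siN libraries 1 to 4 and 756, 674, 768 and 720.2 CPM in siHoxa5 libraries 1 to 4, and the groups overlapped. Its log2 fold change of -0.042 with SE 0.068 and edgeR adjusted p = 0.807, did not pass, and the 95% interval was -0.18 to 0.092, above the estimate for PABPC1; the difference between both genes was not tested. The PABPC3 row had 154, 168, 153 and 150.1 CPM in siN and 153, 146, 196 and 186 CPM in siHoxa5 libraries, 0.12 (SE 0.13) on the log2 scale, with siHoxa5 libraries 3 and 4 above every siN library and library 2 below every one. The ratio of PABPC1 to PABPC4 counts was 20.8, 20.1, 19.8 and 19.8 in siN libraries 1 to 4 and 17.4, 19.0, 16.7 and 18.9 in siHoxa5 libraries 1 to 4, lower in every siHoxa5 library. Summed over the 10 PABPC rows, the level was 16064 ± 209.5 CPM in siN and 13995 ± 390.4 CPM in siHoxa5 (SD, n = 4 each). PABPC1 alone made up 15148 CPM of this sum in siN and 13092 CPM in siHoxa5. The lower sum in siHoxa5, with no overlap between the groups, thus mostly repeats the PABPC1 result. Of the PABPC rows under the sum of 40, PABPC1L2A held 15 counts in siN and 4 in siHoxa5. Its ratio of rates was 0.295 (exact 95% interval 0.0712 to 0.925, counting error only). Only the 6 rows outside the set with at least 15 counts were compared in this way, and it was the only one whose interval left out 1. The interval takes no account of library-to-library spread or of the number of rows compared, so PABPC1L2A is not called lower.

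**Figure D3:**
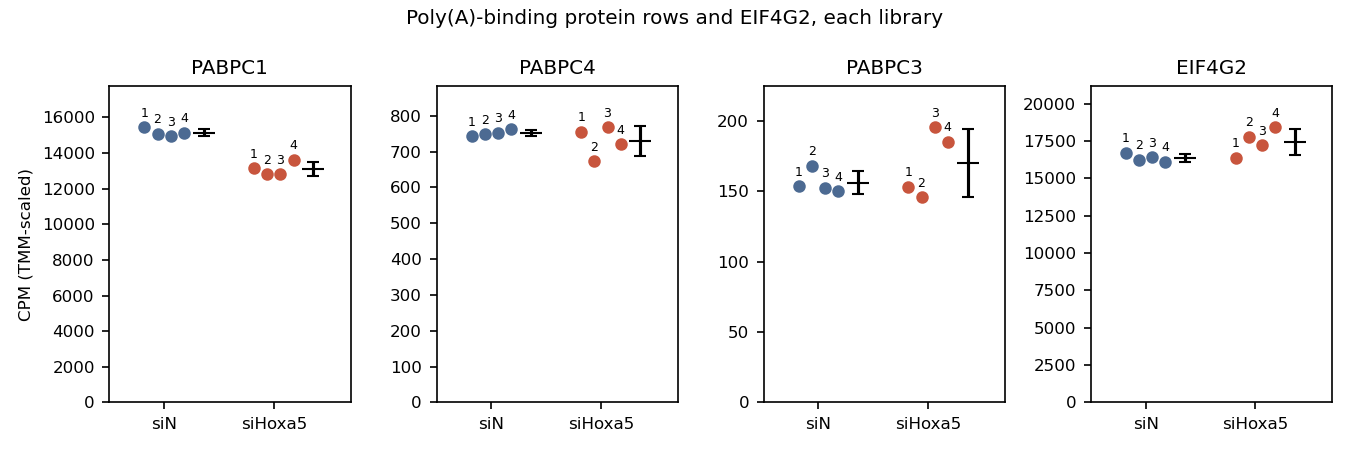
CPM (y axes, starting at 0) of PABPC1, PABPC4, PABPC3 and EIF4G2 in siN (blue) and siHoxa5 (red) libraries; each numbered point is a library and the black bar is the mean ± SD. The 4 siHoxa5 points of PABPC1 sit between 12804 and 13613 CPM, all below its siN points, whereas the groups overlap for the other 3 genes.

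eIF4F recruits the ribosome to the cap. Of the 8 tested genes of eIF4F, its relatives and its helpers, 0 rose or fell. EIF4G2, also known as DAP5, is an eIF4G relative that lacks the eIF4E-binding part and supports cap-independent initiation; it lies on chromosome 7, 111067750 to 111083030, minus strand. It was the most abundant of the translation factor rows, at 16706, 16257, 16409 and 16114 CPM in siN libraries 1 to 4 and 16382, 17781, 17221 and 18415 CPM in siHoxa5 libraries 1 to 4. siHoxa5 libraries 2, 3 and 4 lay above every siN library and library 1 within their range. Its log2 fold change of 0.092 with SE 0.042 and edgeR adjusted p = 0.190 (95% interval 0.0088 to 0.17), did not pass, and it did with limma-voom (0.089, adjusted p = 0.0343; 3.54% of all genes were higher there) and without siHoxa5 library 1, where 4.21% of all genes were called higher and 4.21% lower (0.12, edgeR adjusted p = 0.0480). With the length and GC trend removed it was 0.026, and without siHoxa5 libraries 2 and 4 0.043.

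EIF4G1, the principal scaffold, had 1932, 2151, 1876 and 1892 CPM in siN libraries 1 to 4 and 1904, 1964, 1939 and 1895 CPM in siHoxa5 libraries 1 to 4, a log2 fold change of -0.028 (SE 0.053) with an interval of -0.13 to 0.077. Its siHoxa5 values all lay inside the siN range. EIF4G3, the less abundant paralog, had 208, 208, 246 and 207 CPM in siN and 243, 228, 235 and 231 CPM in siHoxa5 libraries and 0.11 (SE 0.11) on the log2 scale. The ratio of EIF4G2 to EIF4G1 counts was 8.65, 7.56, 8.75 and 8.52 in siN and 8.60, 9.05, 8.88 and 9.72 in siHoxa5 libraries, and the groups overlapped.

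EIF4E2, the cap-binding protein 4EHP, which competes with eIF4E and represses translation, had the smallest p after PABPC1 of the set. It was measured at 311, 268, 304 and 306 CPM in siN libraries 1 to 4 and 274, 222, 238 and 249 CPM in siHoxa5 libraries 1 to 4. siHoxa5 libraries 2, 3 and 4 lay below every siN library, while library 1 was above siN library 2. The means were 297 ± 19.5 CPM in siN and 246 ± 21.9 CPM in siHoxa5 (SD, n = 4 each), for a log2 fold change of -0.27 with SE 0.10 and edgeR adjusted p = 0.0852, so it did not pass; without siHoxa5 library 1 it did (-0.33, edgeR adjusted p = 0.0366). EIF4E, the cap-binding protein of eIF4F itself, had 723, 721, 689 and 619 CPM in siN and 651, 734, 629 and 795 CPM in siHoxa5 libraries, with 0.027 (SE 0.071) on the log2 scale and an interval of -0.11 to 0.17. siHoxa5 libraries 2 and 4 lay above every siN library and libraries 1 and 3 within the siN range.

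EIF4A2, an RNA helicase of eIF4F, had 2687, 2702, 2778 and 2665 CPM in siN libraries 1 to 4 and 2679, 2960.1, 2664 and 3010.1 CPM in siHoxa5 libraries 1 to 4, a log2 fold change of 0.062 (SE 0.050). siHoxa5 libraries 2 and 4 were the highest and libraries 1 and 3 lay close to siN, and without libraries 2 and 4 the value was -0.014. The row EIF4A1, the ubiquitous paralog, held only 8 counts in all siN and 8 in all siHoxa5 libraries, a ratio of rates of 1.10 (exact 95% interval 0.361 to 3.38, counting error only). The mouse coding sequences of Eif4a1 and Eif4a2 were 78.2% identical. The helicase cofactors EIF4B and EIF4H had 0.29 (SE 0.17) and -0.15 (SE 0.096) on the log2 scale. EIF4B had 92.3, 66.7, 91.3 and 72.0 CPM in siN and 140.4, 89.3, 78.3 and 85.5 CPM in siHoxa5 libraries. Its siHoxa5 library 1 stood above all others, and without it the log2 fold change was 0.063. Over the 15 alternatives EIF4B ranged from 0.063 to 0.44.

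EIF4EBP1, which binds eIF4E and keeps it from eIF4G unless phosphorylated by mTORC1, had 201, 262, 268 and 271 CPM in siN libraries 1 to 4 and 282, 184, 256 and 271 CPM in siHoxa5 libraries 1 to 4. The groups overlapped, with siN library 1 and siHoxa5 library 2 low, and the log2 fold change was -0.0078 (SE 0.11), with an interval of -0.22 to 0.21. EIF4ENIF1, the eIF4E transporter, did not pass the filter and had 8, 8, 1 and 9 counts in siN libraries 1 to 4 and 15, 8, 4 and 2 in siHoxa5 libraries 1 to 4. Its ratio of rates, siHoxa5 to siN, was 1.23 (exact 95% interval 0.701 to 2.18). EIF2AK4, the amino acid sensor kinase GCN2 that phosphorylates eIF2 alpha, was also under the filter, with 10, 9, 10 and 9 counts in siN libraries 1 to 4, 12, 9, 4 and 12 in siHoxa5 libraries 1 to 4 and a ratio of 1.08 (0.665 to 1.74). These intervals cover counting error only; both include 1. The other 3 eIF2 alpha kinase rows held 1 count together.

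eIF3 is the largest initiation complex and holds the small subunit ready for the mRNA; 9 of its 14 rows reached the sum, and of these 9, 0 rose or fell (median log2 fold change -0.011, range -0.30 to 0.059). EIF3J, a loosely bound subunit, was the most abundant, at 1409, 1381, 1343 and 1432 CPM in siN libraries 1 to 4 and 1350.3, 1348, 1366 and 1459 CPM in siHoxa5 libraries 1 to 4. Its groups overlapped, and its log2 fold change was -0.011 (SE 0.056), with an interval of -0.12 to 0.10. EIF3A, a core scaffold subunit, had -0.050 (SE 0.099) on the log2 scale, with 255, 308, 332 and 282 CPM in siN and 269, 313, 282 and 273 CPM in siHoxa5 libraries. EIF3L had 75.4, 54.0, 37.8 and 73.5 CPM in siN and 66.9, 65.6, 32.6 and 30.9 CPM in siHoxa5 libraries, -0.30 (SE 0.22) on the log2 scale. Both groups of EIF3L held high and low libraries. EIF3M had -0.25 (SE 0.27) on the log2 scale. The sum of the 9 subunits was 2181 ± 53.8 CPM in siN and 2144 ± 42.8 CPM in siHoxa5 (SD, n = 4 each). The 5 subunit rows outside the set, EIF3B, EIF3C, EIF3CL, EIF3F and EIF3K, held at most 7 counts each over the 8 libraries.

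The eIF2 group brings the initiator tRNA, and 0 of its 5 tested genes rose or fell. EIF2S1, the alpha subunit that stress kinases phosphorylate, had 534, 503, 538 and 513 CPM in siN libraries 1 to 4 and 491, 568, 566 and 595 CPM in siHoxa5 libraries 1 to 4. siHoxa5 library 1 was below every siN library and the other 3 above every one, for a log2 fold change of 0.086 (SE 0.076). EIF5, the GTPase-activating partner of eIF2, had 1909, 1809.7, 1782 and 1892 CPM in siN libraries 1 to 4 and 1687, 2038, 1644 and 1759 CPM in siHoxa5 libraries 1 to 4, and -0.054 (SE 0.055) on the log2 scale; libraries 1, 3 and 4 of siHoxa5 lay below every siN library and library 2 above every one. Over the 15 alternatives EIF5 ranged from -0.15 to -0.017 and EIF2S1 from 0.023 to 0.14. EIF2S2, the beta subunit, had -0.097 (SE 0.10). The gamma subunit was split between the rows EIF2S3B and EIF2S3, neither with a mouse namesake, whose sum was 241, 225, 225 and 190 CPM in siN and 233, 157, 204 and 231 CPM in siHoxa5 libraries. EIF2S3B had -0.14 (SE 0.12) on the log2 scale. Of the eIF2B exchange factor, which reloads eIF2, the row EIF2B3 held 25 counts in siN and 12 in siHoxa5, a ratio of 0.530 (exact 95% interval 0.243 to 1.10), and it lies outside the set.

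EIF1, which guards start codon selection, had 3071, 2942, 2997 and 2969 CPM in siN libraries 1 to 4 and 2684, 2946, 2679 and 3023 CPM in siHoxa5 libraries 1 to 4. siHoxa5 libraries 1 and 3 lay below every siN library, while libraries 2 and 4 lay within the siN range. Its log2 fold change of -0.081 with SE 0.050 and edgeR adjusted p = 0.382, did not pass; without siHoxa5 libraries 2 and 4 it was -0.15 and passed (edgeR adjusted p = 0.0190; 2.33% of all genes were lower there), and with the length and GC trend removed it was 0.034. EIF1B, its paralog (81.1% identical coding sequence in mouse), had -0.088 (SE 0.15) on the log2 scale. EIF5B, which joins the large subunit, had 41.5, 12.7, 31.5 and 41.4 CPM in siN and 32.7, 21.9, 19.6 and 29.1 CPM in siHoxa5 libraries, and its few counts left a 95% interval of -0.88 to 0.28 on the log2 scale. siN library 2 was the lowest of all 8 for EIF5B.

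EEF1A1 encodes the main carrier of aminoacyl-tRNA, and EEF1A2 its paralog that replaces it in adult heart and skeletal muscle. The mouse genes lie on chromosome 9, 78478449 to 78489151, minus strand, and chromosome 2, 181147653 to 181157014, minus strand. Their coding sequences were 80.1% identical, with a longest shared run of 23 bases. EEF1A1 was measured at 2061, 2061, 2153 and 2159.9 CPM in siN libraries 1 to 4 and 1812, 1789, 1952 and 2293 CPM in siHoxa5 libraries 1 to 4. siHoxa5 libraries 1, 2 and 3 lay below every siN library and library 4 above every one. The means were 2109 ± 55.4 CPM in siN and 1962 ± 233 CPM in siHoxa5 (SD, n = 4 each), for a log2 fold change of -0.11 with SE 0.055 and edgeR adjusted p = 0.278, so with all libraries it did not pass. Without siHoxa5 library 4 it was -0.19 and passed (edgeR adjusted p = 0.00706; 3.58% of all genes were lower there), as it did without libraries 2 and 4 (-0.16, adjusted p = 0.0341), and with the length and GC trend removed it was -0.023.

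EEF1A2 had 328, 278, 329 and 286 CPM in siN libraries 1 to 4 and 312, 308, 309.8 and 304 CPM in siHoxa5 libraries 1 to 4, with every siHoxa5 library inside the siN range and 0.015 (SE 0.095) on the log2 scale (interval -0.17 to 0.20). The ratio of EEF1A1 to EEF1A2 counts was 6.29, 7.42, 6.55 and 7.54 in siN and 5.81, 5.81, 6.30 and 7.55 in siHoxa5 libraries, and the groups overlapped. The EEF1A1 row was thus the larger in every library, opposite to the replacement in adult heart named above. The reason was not tested. EEF2, the translocation factor, had 209, 169.9, 209 and 204 CPM in siN libraries 1 to 4 and 191, 179, 181 and 131 CPM in siHoxa5 libraries 1 to 4, -0.21 (SE 0.12) on the log2 scale with an edgeR adjusted p of 0.322. Its lowest library was siHoxa5 library 4, and without that library the value was -0.11. The rows EEF1B2, EEF1D, EEF1G and EEF1E1 held 10 counts together, and EEF2K, the kinase of eEF2, held 1.

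eIF5A, which carries the modified residue hypusine and helps the ribosome past difficult sequences, was counted in the rows EIF5A, EIF5A2 and EIF5AL1. EIF5A had 1375, 1260.4, 1357 and 1287 CPM in siN libraries 1 to 4 and 1177, 1144, 1264 and 1588 CPM in siHoxa5 libraries 1 to 4. siHoxa5 libraries 1 and 2 lay below every siN library and library 4 above every one, for a log2 fold change of -0.031 (SE 0.067). EIF5AL1 and EIF5A2 had -0.16 (SE 0.18) and -0.16 (SE 0.32). Of the release factors, ETF1 (eRF1), which reads stop codons, had 2955, 2792, 2850.5 and 2840.1 CPM in siN libraries 1 to 4 and 2714, 2734, 2682 and 2812 CPM in siHoxa5 libraries 1 to 4. Its log2 fold change was -0.064 (SE 0.050) with an interval of -0.16 to 0.034, and 3 of the 4 siHoxa5 libraries were below every siN library. GSPT1 (eRF3), its GTPase partner, had 2016, 1875, 1897 and 1839.8 CPM in siN and 1714, 1838, 1878 and 2008 CPM in siHoxa5 libraries, -0.037 (SE 0.054) on the log2 scale, and the groups overlapped.

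**Figure D4:**
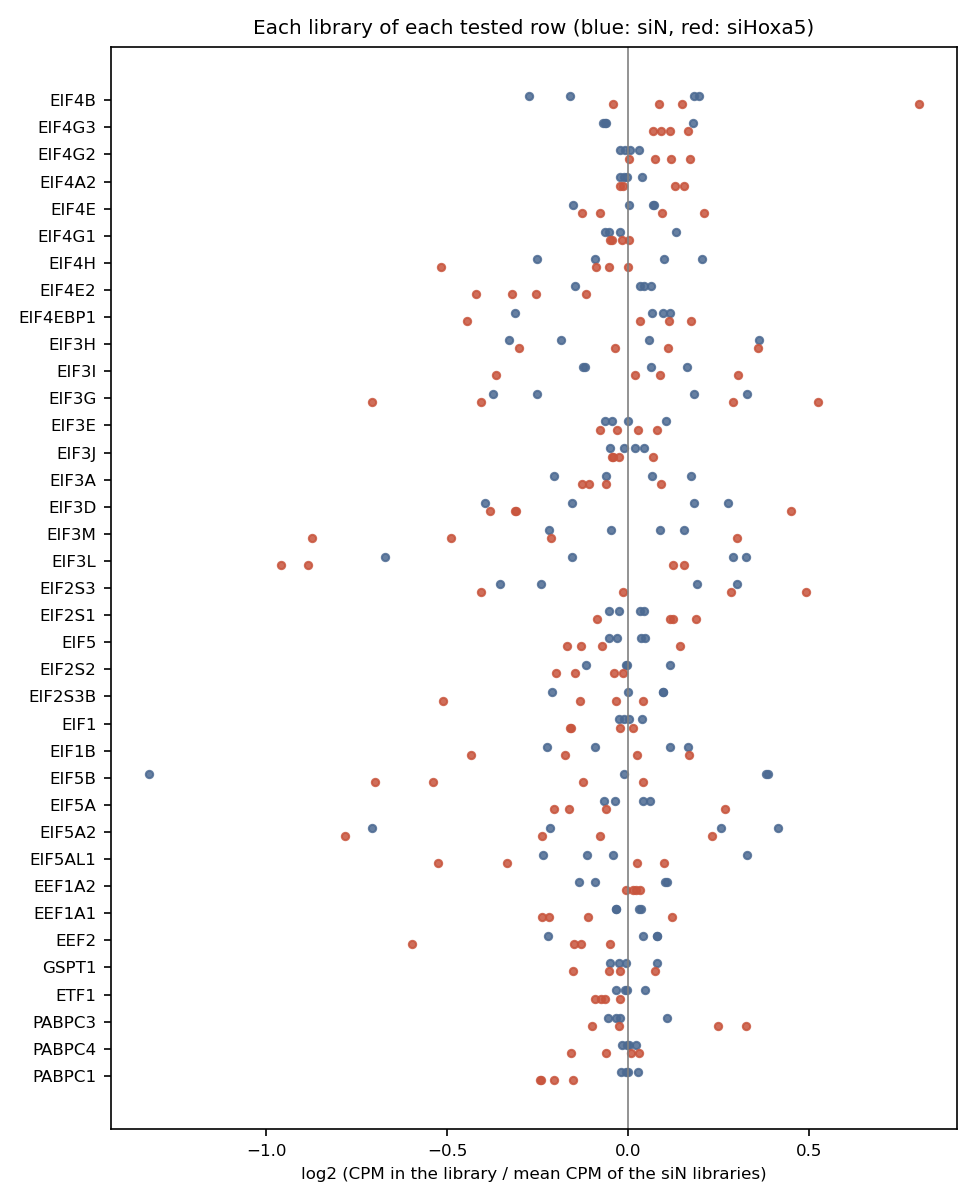
Each tested gene in each library, as the log2 of its CPM over the mean of the siN libraries (x axis), siN in blue and siHoxa5 in red. The red points of PABPC1 lie apart from its blue points; for EEF1A1, EIF5A and EIF5 the red points lie on both sides of the blue ones.

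The SD was larger in siHoxa5 than in siN for 12 of the 14 genes with a mean of at least 500 CPM, all but ETF1 and EIF4G1, against 71.2% of all 400 tested genes of that abundance. siHoxa5 library 4 was the highest of its group for 11 of the 14, PABPC1, EIF4G2 and EEF1A1 among them, against 39.0% of these 400. siN library 1 was the highest of its group for 8 of the 14, against 26.5%. Summed over all 39 genes, the level was 57056, 55675, 55883 and 55518 CPM in siN libraries 1 to 4 and 52645, 54337, 53435 and 57320.3 CPM in siHoxa5 libraries 1 to 4, where library 4 was the highest of all 8 and libraries 1 to 3 lay below every siN library. EIF4G2 gave 30.5% and PABPC1 25.7% of the counts of the set. Without PABPC1 the sum was 40885 ± 540 CPM in siN and 41342 ± 1781 CPM in siHoxa5 (SD, n = 4 each), and the groups overlapped.

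Per kilobase of the longest annotated mouse transcript, the mean level over the 8 libraries was 5013 CPM per kb for PABPC1, 2204 for EIF1, 2115 for EIF4G2, 1134 for EEF1A1 and 1022 for EIF4A2. EEF2 had 59.6 and EEF1A2 147 CPM per kb. Which transcript was expressed is not known from the counts. Partners that work as one complex differed widely in this table: EIF3J had 256 and EIF3G 21.7 CPM per kb, and several subunits were at or near 0 counts, as given above. These levels hold only as far as the reads were matched to mouse genes of these lengths, which is uncertain.

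Genes that act on or beside the translation factors were taken from lists, whose medians stand beside the -0.00371 of all tested genes. Of 19 genes of mTORC1 and the kinases of translation, 8 were tested; 1 rose, 0 fell and 7 did not pass (median log2 fold change 0.16). The one that rose was RPS6KB1, the S6 kinase that phosphorylates ribosomal protein S6 and eIF4B, at 618, 603, 569.8 and 574 CPM in siN libraries 1 to 4 and 714, 714, 651 and 695 CPM in siHoxa5 libraries 1 to 4. Every siHoxa5 library lay above every siN library (log2 fold change of 0.23 with SE 0.071 and edgeR adjusted p = 0.0303). This call was lost with DESeq2 (adjusted p = 0.0851), with no filter (0.0591), with the length and GC trend removed (0.168) and on leaving out any 1 of siHoxa5 libraries 1 and 2 and siN libraries 2 to 4 (0.0562 to 0.109), and without siHoxa5 libraries 2 and 4 it was 0.21 (edgeR adjusted p = 0.101). The ribosomal S6 kinase RPS6KA3 had 0.14 (SE 0.063) and PDPK1, an upstream kinase, -0.63 (SE 0.30) on the log2 scale. The groups did not overlap for either of these genes or for MTOR (0.19, SE 0.13), and none of them passed. Over all tested genes, 6.19% lay apart with siHoxa5 higher and 5.76% with siHoxa5 lower.

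Of 24 regulators of the cap, the poly(A) tail and initiation, 18 were tested; 1 rose, 0 fell and 17 did not pass (median log2 fold change 0.025). FXR1, an RNA-binding protein of the fragile X family that is abundant in striated muscle, rose (log2 fold change of 0.17 with SE 0.052 and edgeR adjusted p = 0.0224), at 2758, 2761, 2548 and 2586 CPM in siN libraries 1 to 4 and 2627, 3201, 2956 and 3241 CPM in siHoxa5 libraries 1 to 4. siHoxa5 library 1 lay within the siN range and the other 3 above it. The call was lost with DESeq2 (adjusted p = 0.0861) and on leaving out any 1 of siHoxa5 libraries 2 and 4 and siN libraries 3 and 4 (0.0588 to 0.134), and without siHoxa5 libraries 2 and 4 together the log2 fold change was 0.074 (edgeR adjusted p = 0.468). FMR1, its relative, had 0.20 (SE 0.072), with no overlap between groups, and PAIP2, a protein that displaces poly(A)-binding protein from the tail, had -0.19 (SE 0.079), also with no overlap; neither passed. Without siHoxa5 library 1 FMR1 did (0.25, edgeR adjusted p = 0.0183). PAIP2 stood at 544, 514, 513 and 553 CPM in siN and 498, 414, 509 and 440.1 CPM in siHoxa5 libraries. Groups lay apart for 6.19% of all tested genes with siHoxa5 higher and for 5.76% with siHoxa5 lower.

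Of 20 genes of ribosome recycling and rescue, 8 were tested; 0 rose, 0 fell and 8 did not pass (median log2 fold change -0.049), and the smallest p were those of HBS1L at 0.27 (SE 0.26), GTPBP2 at -0.11 (SE 0.12) and PELO at -0.27 (SE 0.32). Of 16 genes of the stress response around eIF2, its regulators and targets, 3 were tested; 0 rose, 0 fell and 3 did not pass (median log2 fold change -0.077). These were ATF4, the transcription factor whose translation rises when eIF2 is phosphorylated, at -0.034 (SE 0.14), CEBPB at -0.61 (SE 0.35) and NCK1 at -0.077 (SE 0.22). Of the cytosolic aminoacyl-tRNA synthetase genes, which charge the tRNAs that eEF1A delivers, 6 were tested. Of these, 0 rose, 0 fell and 6 did not pass (median log2 fold change 0.083). GARS was at -0.25 (SE 0.21), VARS at 0.11 (SE 0.15) and EPRS at 0.19 (SE 0.33) on the log2 scale. Over the 15 alternatives EPRS ranged from -0.032 to 0.58.

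Several translation factor mRNAs begin with a terminal oligopyrimidine tract, the 5′ feature through which mTORC1 and LARP1 control ribosomal protein mRNAs. Of 11 tested genes listed as such, 1 fell (PABPC1), 0 rose and 10 did not pass. Over all tested genes, 3.38% were called lower and 3.74% higher. The median log2 fold change of the 11 was 0.000943, with a range of -0.30 (EIF3L) to 0.29 (EIF4B). Of the 11, 5 lay below 0, EEF1A1 and EEF2 included.

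**Figure D5:**
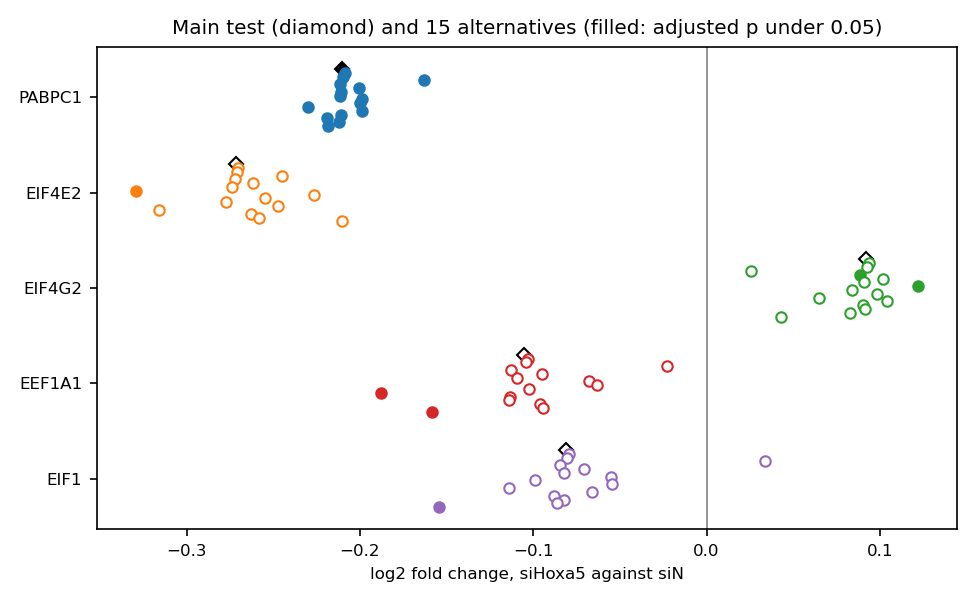
Log2 fold change (x axis) of PABPC1, EIF4E2, EIF4G2, EEF1A1 and EIF1 in the main test (diamond, top of each row) and under 15 alternatives (circles), filled where the adjusted p was under 0.05. All 16 symbols of PABPC1 are filled, between -0.23 and -0.16, while the other 4 genes are called in 1 or 2 alternatives.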

How the data were processed

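The authors deposited unnormalized estimated counts for each gene symbol; all but 4 rows were whole numbers. The submitters' processing notes name FastQC 0.11.8, STAR 2.6.1b, HTSeq, R 3.5.3 and mm10. Human-spelled symbols, counted rows with no mouse namesake and usually abundant genes near 0 leave it uncertain which gene models were used. Neither annotation, strand setting nor treatment of multi-gene reads is stated in the sources used here. Per the labels' protocols, libraries were TruSeq libraries of poly(A) RNA. The 8 library files were identical to the columns of the series table.

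Counts were rounded and tested with edgeR 4.0.16 (quasi-likelihood, robust, R 4.3.3) after TMM scaling and filterByExpr (minimum count 10, minimum total 15), group as the only term, over 3020 genes, with a Benjamini-Hochberg threshold of 0.05. Intervals use the test's standard error. DESeq2 1.42.0, limma-voom (limma 3.58.1), other filters and scalings, left-out libraries and a replicate block were alternatives. The steps were checked on simulated counts. Lengths and the coding sequences behind the identities came from GENCODE M21 (GRCm38); the sequences themselves are not reported here.

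The genes, lists and roles were chosen with earlier results of these data known. Named were all genes past the threshold, the 15 smallest p, 2 by p and 2 by level per role, close paralogs, and the 3 smallest p per other list. EIF4E, EIF2S2, EIF3G and MTOR were chosen after their values were seen. With 560190 to 658192 counts per library, the median SE of the 37 log2 fold changes was 0.10.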

Additional observations from a re-analysis of the deposited data

Results flagged for a closer look

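Of 78 groups of 4 libraries (39 genes in 2 groups), 7 had a library whose gap to its nearest neighbour took more of the group's range than the 95% critical value of Dixon's ratio for 4 samples; chance gives about 1 in 20 groups, and 7 of 78 is 8.97%. In siN, EIF4EBP1 in library 1 had 201 CPM against 262 to 271 CPM in the other 3, and EIF4G3 in library 3 had 246 CPM against 207 to 208 CPM in the other 3. siN library 2 had EIF4E2 at 268 CPM against 304 to 311 CPM in the other 3, and EEF2 at 169.9 CPM against 204 to 209 CPM in the other 3. EIF4ENIF1 in siN library 3 had 1.57 CPM against 12.3 to 13.8 CPM in the other 3. In siHoxa5, library 4 had EIF3J at 1459 CPM against 1348 to 1366 CPM in the other 3, and EIF3D at 74.6 CPM against 41.9 to 44.1 CPM in the other 3. PABPC1 was not among them. No cause was tested.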

How the results depend on the processing

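PABPC1 kept its direction and its call in all 15 alternatives. The count of called genes over all 3020 was 215; it was 112 with DESeq2, 143 without siHoxa5 libraries 2 and 4 (an alternative added later, because those libraries stood apart from the rest) and 145 to 260 when each library was left out in turn. The number of translation factor genes that rose was 0, but 1 with limma-voom (EIF4G2) and 0 to 1 with a library left out. The number that fell was 1, but 3 without siHoxa5 libraries 2 and 4 (PABPC1, EEF1A1 and EIF1) and 1 to 2 with a library left out. The median log2 fold change ranged from -0.055 to -0.015. The deviations of same-numbered libraries had correlations of -0.0201 to 0.0662, and those of other pairs -0.0496 to 0.0433. Not every library correlated best with its own number. Counting noise pulls such correlations towards 0, so they cannot tell whether same-numbered libraries shared more than a number. With the replicate block 250 genes and again PABPC1 alone were called (-0.21). Values whose sign changed all belonged to genes that did not pass. With the length and GC trend removed (34 of the 37 genes could be fitted) these were EIF1 (0.034), PABPC4 (0.00088), EIF1B (0.033), EIF5A (0.072), EIF4EBP1 (0.062), ATF4 (0.059); without siHoxa5 libraries 2 and 4 EIF4A2 (-0.014), PABPC4 (0.024), EIF5A2 (0.025), EIF4EBP1 (0.11), NCK1 (0.094); with no filter EIF4EBP1 (0.0017). With a library left out the ranges were GSPT1 -0.076 to 0.0015, EIF1B -0.19 to 0.017, EIF4G1 -0.050 to 0.021, EIF3A -0.11 to 0.011, EIF5A2 -0.34 to 0.010, EIF5A -0.14 to 0.023, EIF3J -0.038 to 0.0017, EEF1A2 -0.025 to 0.053, EIF4EBP1 -0.097 to 0.11, NCK1 -0.20 to 0.060, ATF4 -0.22 to 0.077, EPRS -0.032 to 0.35. The cause was not tested. The ratios of EIF2AK4 and EIF4ENIF1 ranged over 0.952 to 1.30 and 0.808 to 1.50 with a library left out. Depth limits the rarer genes: the SE ran from 0.042 (EIF4G2) to 0.32 (EIF5A2).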
